A study of Homo sapiens with 6 samples.

Results

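The genes of homologous recombination and of the Fanconi anemia pathway were followed in SKOV3 cells after knockdown of EIF5A2. The set holds 39 genes, chosen by symbol as proteins that resect broken DNA ends, assist strand exchange, build the Fanconi complexes, or take apart joined DNA molecules, and all 39 were found among the 58825 gene identifiers of the count table. SKOV3 is an established human ovarian cancer cell line. The cells received a negative control siRNA (NC) or an siRNA against EIF5A2 (si-EIF5A2), and the mRNA of 3 libraries per group was sequenced. The time after transfection was 48 h in both groups, and no other genotype, drug or damaging agent was named for any library. The knockdown was transient and was made in a single cell line, and nothing in the labels says that the 3 libraries of a group came from separate cultures, so the p-values below measure the spread between these libraries, which may be technical.

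Homologous recombination repairs a broken chromosome by copying the intact sister chromatid. Nucleases cut the broken ends back to single strands, BRCA2 and its partners prepare these strands to pair with the sister, and the joined molecules that follow are dissolved or cut apart. The Fanconi anemia proteins act where both strands are covalently linked to each other: a core complex ubiquitinates the FANCD2-FANCI pair at the lesion, nucleases unhook it, and recombination restores the chromosome. Both systems are active mainly in S and G2 phase, when a sister chromatid is present, and loss of BRCA1 or BRCA2 function in ovarian cancer is known for the sensitivity to platinum drugs that it brings. EIF5A2 is a translation factor closely related to EIF5A.

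The knockdown was first checked in every library. EIF5A2 mRNA was at 27.8, 29.8 and 29.9 CPM (counts set relative to the TMM-scaled library total) in NC replicates 1 to 3 and at 2.76, 4.04 and 4.27 CPM in si-EIF5A2 replicates 1 to 3. The mean fell from 29.1 ± 1.15 to 3.69 ± 0.817 CPM (SD, n = 3 each), which is 12.7% of NC, with a log2 fold change of -2.98 ± 0.18 (edgeR adjusted p = 1.6e-05). Deposited totals ran from 46900204 to 74142267 counts in NC and from 47341502 to 52973727 counts in si-EIF5A2, and a floor of 3 fragments corresponded to 0.148 to 0.235 CPM. Of the markers set for an epithelial ovarian cancer line, KRT8 and KRT18 were abundant, at 608 and 418 CPM in the mean of NC. ERBB2 was at 45.9 CPM, and EPCAM, KRT19 and MUC1 were at or below 3.22 CPM in that mean. The 4 leukocyte markers summed to at most 0.0565 CPM in any library, with 3 of them at 0 in all 6.

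Throughout, the 3 values of a group are listed in the order of replicates 1, 2 and 3, and CPM are TMM-scaled. Log2 fold changes compare si-EIF5A2 with NC and carry a standard error derived from the edgeR test. This error is the absolute log2 fold change over the square root of the F statistic. A gene is called lower or higher at a Benjamini-Hochberg adjusted p under 0.05 in edgeR's quasi-likelihood fit over 16208 genes together with a fold change over 1.5. In bulk RNA, fewer cells that express a gene and less RNA per cell cannot be told apart.

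Most of the repair genes were lower after EIF5A2 knockdown. All 39 were tested, 23 of them (59%) were called lower and 0 higher, and 16 were not called. Over all genes tested, 13.6% were called lower and 11.1% higher. At an unadjusted p under 0.05 in edgeR, 1 of the 39, RAD50, was higher and 27 were lower. The share of all genes at this threshold was not counted. At an adjusted p under 0.05 with no fold limit, 26 of the 39 were lower and 0 higher. Of all genes tested, 18.9% were lower and 18% higher at that setting. With the calling thresholds, DESeq2 gave the same numbers, 23 lower and 0 higher, beside 9.5% and 7.46% of 25627 genes with a count. Every si-EIF5A2 library lay below every NC library for 28 of the 39 genes, against 26.5% of all genes tested. For the other 11 the groups overlapped, as they did for 7912 of all 16208 genes tested. No gene of the set had its si-EIF5A2 libraries all above NC, against 4000 of the 16208. The log2 fold changes ran from -3.44 for RAD54L to 0.43 for RAD50, with a median of -1.44 against -0.01 over all genes tested. No gene lay between FANCL at -1.02 and FANCC at -0.55, which left 24 genes on the lower side and 15 on the upper. Summed over the set, the mRNA went from 500 to 534 CPM in the NC libraries to 292 to 302 CPM in the si-EIF5A2 libraries, or 57.1% of NC.

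**Figure D1:**
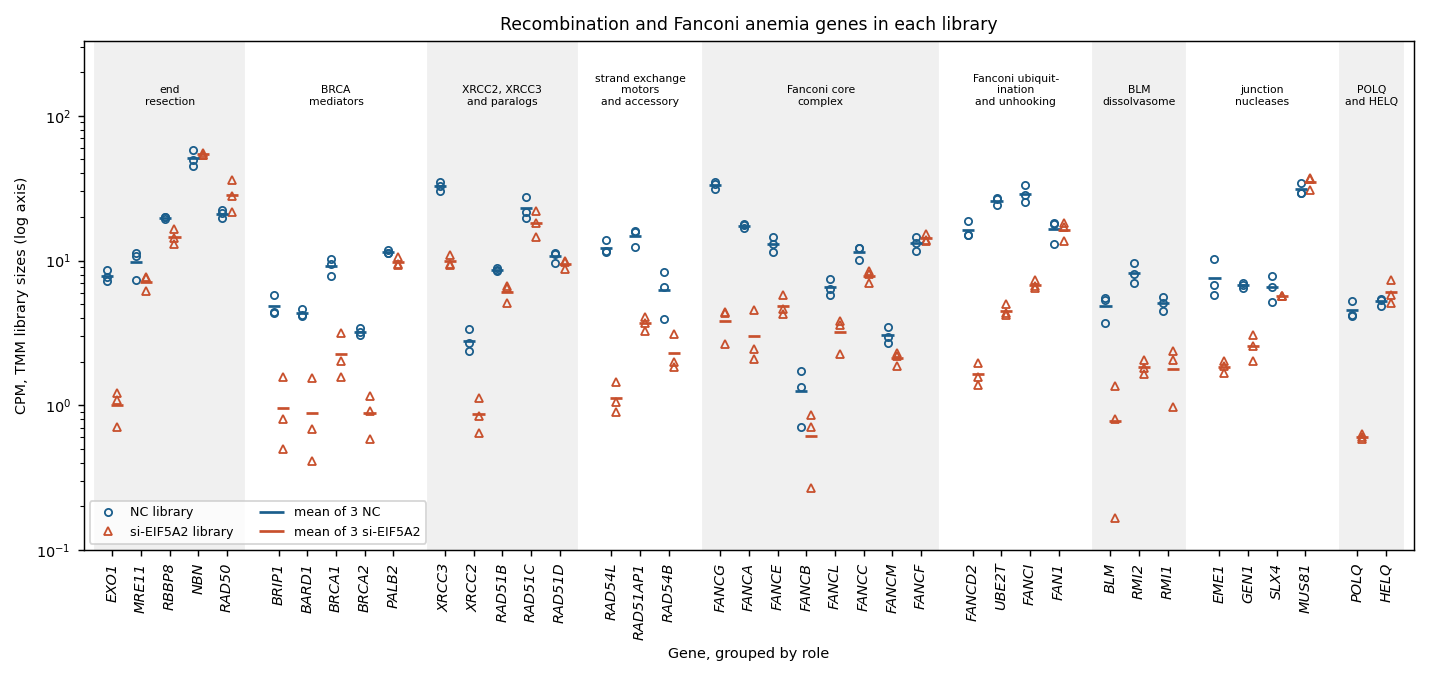
Levels of the 39 repair genes in each of the 6 libraries, as TMM-scaled CPM on a log axis, with each gene at its own position, circles for NC, triangles for si-EIF5A2 and a short line at each group mean (n = 3). The groups separate widely for RAD54L, FANCD2 and FANCG and lie together for NBN, MUS81 and FAN1.

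**Figure D2:**
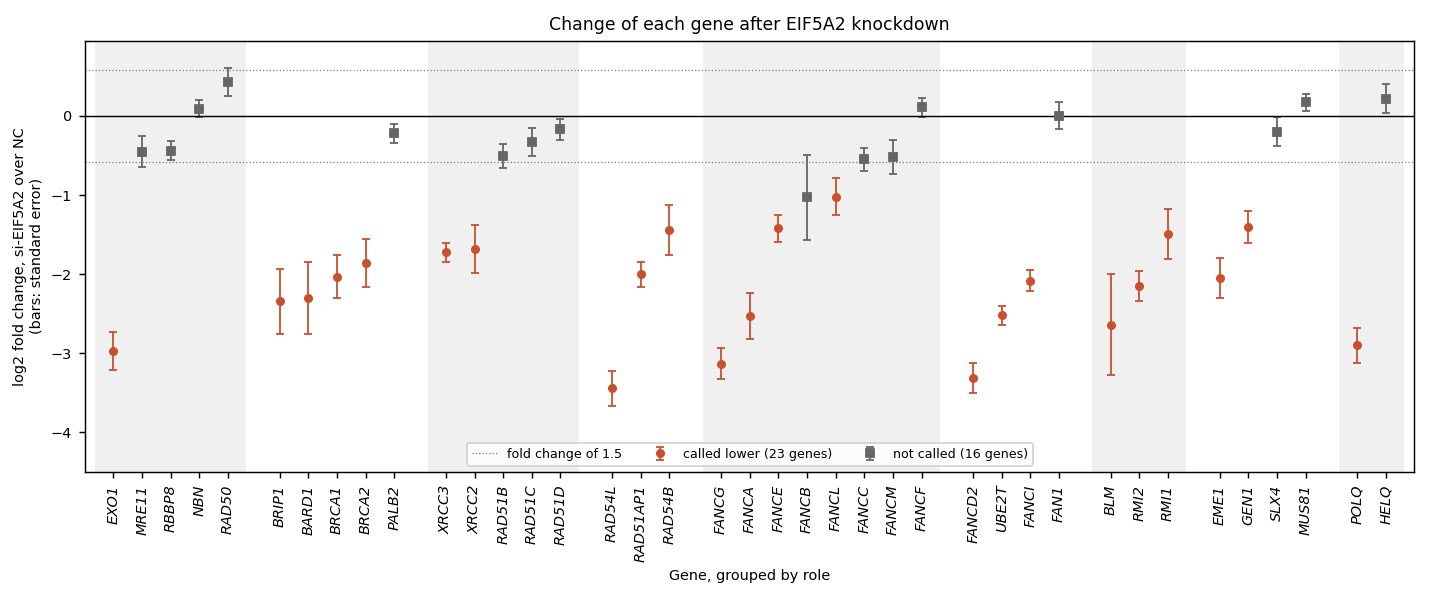
Log2 fold change of each repair gene in si-EIF5A2 over NC, with bars for the standard error derived from the edgeR test (3 libraries per group). Circles mark the 23 genes called lower, squares the 16 not called, shading the roles, and dotted lines a fold change of 1.5. Values run from -3.44 for RAD54L to 0.43 for RAD50, and the bar of BLM, 0.64 to each side, is the widest.

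The stretches around the start sites of these genes were read for letters known from cell cycle promoters. RefSeq windows on GRCh38.p14, from 250 bases before to 50 bases after a start site, were at hand for 35 of the 39 genes and not for FANCI, NBN, RAD54B or RMI2. Searched on both strands were the CHR element (TTTGAA or TTCGAA), the CCAAT box (CCAAT) and an E2F element (TTCGCGC or TTGGCGC). The 6 windows below, each 300 bases long and written 5′ to 3′ on the strand of the gene, show windows with different matches, and 1 with none: 5 belong to genes called lower, and FANCF to a gene that was not called. Some genes had more than 1 window, EXO1 among them, and were counted as holding a match if any window did. Capitals mark every match to the letters searched, in either orientation. The windows are EXO1 at chr1:241847954-241848253 (+ strand), POLQ at chr3:121545939-121546238 (- strand), UBE2T at chr1:202341887-202342186 (- strand), FANCA at chr16:89816598-89816897 (- strand), FANCD2 at chr3:10026187-10026486 (+ strand) and FANCF at chr11:22625774-22626073 (- strand).
EXO1: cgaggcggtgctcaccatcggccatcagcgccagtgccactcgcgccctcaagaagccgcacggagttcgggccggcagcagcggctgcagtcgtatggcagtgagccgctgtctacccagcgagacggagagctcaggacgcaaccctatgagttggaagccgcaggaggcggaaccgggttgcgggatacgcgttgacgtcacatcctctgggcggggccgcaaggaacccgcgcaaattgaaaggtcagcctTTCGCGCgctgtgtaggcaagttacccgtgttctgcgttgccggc
POLQ: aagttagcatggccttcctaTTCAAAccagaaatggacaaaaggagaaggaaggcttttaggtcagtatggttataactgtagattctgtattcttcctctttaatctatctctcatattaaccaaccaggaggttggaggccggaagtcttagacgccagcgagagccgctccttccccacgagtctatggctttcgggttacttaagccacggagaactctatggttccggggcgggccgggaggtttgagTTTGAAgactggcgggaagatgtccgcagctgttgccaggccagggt
UBE2T: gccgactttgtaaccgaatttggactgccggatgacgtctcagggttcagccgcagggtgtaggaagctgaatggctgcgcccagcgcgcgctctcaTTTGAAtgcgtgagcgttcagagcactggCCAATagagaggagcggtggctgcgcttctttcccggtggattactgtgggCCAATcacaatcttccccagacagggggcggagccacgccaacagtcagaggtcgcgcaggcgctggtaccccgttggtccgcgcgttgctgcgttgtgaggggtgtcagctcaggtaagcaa
FANCA: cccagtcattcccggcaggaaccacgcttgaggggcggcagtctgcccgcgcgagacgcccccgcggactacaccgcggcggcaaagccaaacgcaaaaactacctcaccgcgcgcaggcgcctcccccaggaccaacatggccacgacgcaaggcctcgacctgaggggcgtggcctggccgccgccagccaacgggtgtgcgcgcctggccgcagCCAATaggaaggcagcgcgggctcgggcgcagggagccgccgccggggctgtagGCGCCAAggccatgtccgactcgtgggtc
FANCD2: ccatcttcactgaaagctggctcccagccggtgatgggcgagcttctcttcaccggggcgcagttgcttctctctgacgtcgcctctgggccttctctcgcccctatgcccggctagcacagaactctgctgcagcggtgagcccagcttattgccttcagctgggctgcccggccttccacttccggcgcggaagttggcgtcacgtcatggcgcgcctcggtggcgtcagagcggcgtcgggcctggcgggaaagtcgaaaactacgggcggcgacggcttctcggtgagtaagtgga
FANCF: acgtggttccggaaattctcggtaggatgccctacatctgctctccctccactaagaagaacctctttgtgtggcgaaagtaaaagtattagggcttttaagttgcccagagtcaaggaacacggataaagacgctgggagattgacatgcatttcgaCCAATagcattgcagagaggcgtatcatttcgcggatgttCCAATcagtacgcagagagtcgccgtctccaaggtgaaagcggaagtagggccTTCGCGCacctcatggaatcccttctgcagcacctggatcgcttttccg

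EXO1 held a single E2F match just after its start site, POLQ a CHR match at each end of the window, UBE2T a CHR match with 2 CCAAT boxes, and FANCA a CCAAT box with an E2F match. FANCD2, among the genes with the largest decrease, held none of the letters searched. FANCF, which was not called, held 2 CCAAT boxes and an E2F match. Among the 20 genes called lower that had a window, 6 (30%) held an E2F match, namely EXO1, GEN1, RMI1, BLM, FANCA and EME1. Among the 15 that were not called, 2 (13.3%) did, FANCC and FANCF, and the share was 10.2% over 11161 tested genes with a window. Over all 35116 windows it was 5.06%. Shares over all windows count windows and not genes, so they are not on the same scale as the others. A CCAAT box stood in 10 of 20 (50%) and in 6 of 15 (40%), with 42.9% over the tested genes and 34.6% over all windows. A CHR match stood in 4 of 20 (20%), UBE2T, POLQ, GEN1 and BRIP1, and in 2 of 15 (13.3%), with 15.6% over the tested genes and 16.4% over all windows. Over the 1669 tested genes called lower that had a window, the shares were 13.1% for E2F, 46.8% for CCAAT and 20.6% for CHR. Without any match were 7 of the 20, FANCD2, FANCG, BARD1, BRCA2, XRCC2, FANCE and FANCL. These are matches of letters in a window and were compared with no test. Only the spellings given were searched, so a window without a match may hold another form of the same element.

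**Figure D3:**
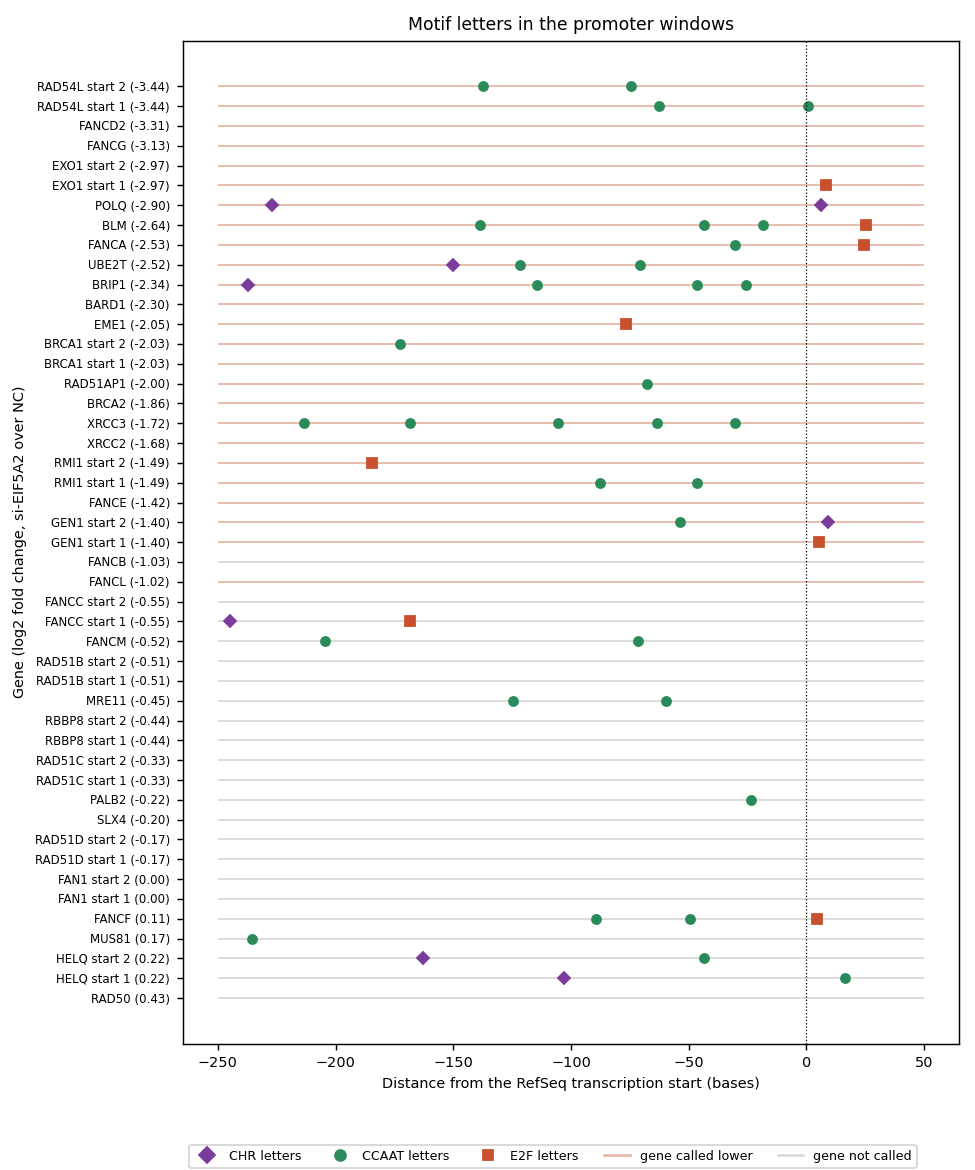
Positions of CHR, CCAAT and E2F matches in the RefSeq promoter windows of the repair genes, in bases from the start site, with 1 line per gene window. Matches stood in windows of genes called lower, such as XRCC3 with 5 CCAAT boxes, and in windows of genes not called, such as FANCF.

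Of the 5 genes for end resection, the exonuclease gene EXO1 was called lower and the 4 others were not called. Their summed level in si-EIF5A2 was 96.5% of NC. EXO1 (ENSG00000174371, chr1:241847967-241895148, + strand), which lengthens the single-stranded tail, was at 7.67, 8.57 and 7.19 CPM in NC and at 1.08, 1.21 and 0.709 CPM in si-EIF5A2. Its level fell to 12.8% of NC, with a log2 fold change of -2.97 ± 0.24 (edgeR adjusted p = 6.21e-05). RAD50, the ATPase of the MRE11-RAD50-NBN complex, was at 19.6, 22.4 and 21.4 CPM in NC and at 27.7, 21.7 and 36.1 CPM in si-EIF5A2. Replicates 1 and 3 of si-EIF5A2 lay above NC and replicate 2 within it, and the log2 fold change of 0.43 ± 0.18 was not called (edgeR adjusted p = 0.0975). Without si-EIF5A2 replicate 2 it was 0.59 and was called higher (edgeR adjusted p = 0.0208). The nuclease MRE11 was at 7.32, 11.2 and 10.7 CPM in NC and at 7.71, 7.59 and 6.15 CPM in si-EIF5A2, with overlapping groups and a log2 fold change of -0.45 ± 0.20. Without NC replicate 1, the lowest of its group, MRE11 was called lower at -0.62 (edgeR adjusted p = 0.0268). NBN, which links the complex to the ATM kinase, was at 44.7, 49.5 and 58.2 CPM against 53.7, 53.3 and 55.7 CPM, with overlapping groups (0.09 ± 0.11). RBBP8, whose protein CtIP starts resection with MRE11, was at 20.1, 19.3 and 19.9 CPM against 14.4, 16.4 and 13 CPM. Its groups did not overlap, and at 73.8% of NC it lay under the fold limit (-0.44 ± 0.12, edgeR adjusted p = 0.0211).

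Among BRCA1, BRCA2 and the proteins that bind them, 4 of 5 fell and PALB2 was not called. BRCA1 (ENSG00000012048, chr17:43044295-43170245, - strand), the ubiquitin ligase subunit that favours resection and recruits PALB2, was at 10.2, 7.85 and 9.44 CPM in NC and at 1.58, 2.01 and 3.17 CPM in si-EIF5A2. BARD1, its obligate partner, went from 4.23, 4.62 and 4.13 CPM to 0.411, 0.69 and 1.54 CPM. BRCA2 (ENSG00000139618, chr13:32315474-32400266, + strand), which acts on the resected single strand, went from 3.06, 3.22 and 3.4 CPM to 1.15, 0.92 and 0.584 CPM. All 3 were lower in every si-EIF5A2 library than in any NC library, with log2 fold changes of -2.03 ± 0.27 for BRCA1, -2.30 ± 0.45 for BARD1 and -1.86 ± 0.30 for BRCA2. BARD1 was at -2.97 without si-EIF5A2 replicate 3, its highest library of that group, and was called lower whichever of the 6 libraries was left out. BRIP1, a helicase that binds BRCA1, fell from 4.38, 4.33 and 5.79 CPM to 0.802, 0.498 and 1.56 CPM (-2.34 ± 0.41, edgeR adjusted p = 0.00298). PALB2, the bridge between BRCA1 and BRCA2, was at 11.3, 11.2 and 11.8 CPM in NC and at 10.6, 9.29 and 9.53 CPM in si-EIF5A2. Its groups did not overlap either, but the difference was small, with a log2 fold change of -0.22 ± 0.12 (edgeR adjusted p = 0.203).

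Of the 5 paralogs RAD51B, RAD51C, RAD51D, XRCC2 and XRCC3, XRCC3 and XRCC2 fell and the other 3 were not called. They act as a complex of RAD51B, RAD51C, RAD51D and XRCC2 and as a second one of RAD51C with XRCC3, and both assist strand exchange. XRCC3 (ENSG00000126215, chr14:103697609-103715504, - strand) fell from 35.1, 32.8 and 30.2 CPM to 9.29, 11 and 9.47 CPM, a log2 fold change of -1.72 ± 0.12 (edgeR adjusted p = 2.67e-05). XRCC2 fell from 2.69, 3.35 and 2.38 CPM to 0.841, 1.13 and 0.646 CPM, at -1.68 ± 0.30 (edgeR adjusted p = 0.00323). The log2 fold changes of the others were -0.51 ± 0.15 for RAD51B, -0.33 ± 0.18 for RAD51C and -0.17 ± 0.13 for RAD51D. RAD51B was separated between groups, at 8.85, 8.6 and 8.53 CPM against 6.45, 5.06 and 6.71 CPM, and lay under the fold limit (edgeR adjusted p = 0.0321). It was called lower without si-EIF5A2 replicate 3, at -0.59 (edgeR adjusted p = 0.0408). RAD51C ranged from 19.8 to 27.3 CPM in NC, and from 14.6 to 22 CPM in si-EIF5A2, and RAD51D from 9.61 to 11.2 CPM and from 8.74 to 9.92 CPM, so that both overlapped.

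The 3 motor and accessory proteins of strand exchange all fell, and their summed level in si-EIF5A2 was 21.4% of NC. RAD54L (ENSG00000085999, chr1:46247688-46278473, + strand), the translocase that drives strand exchange on chromatin, had the largest decrease of the 39 genes. It was at 11.7, 11.5 and 13.8 CPM in NC and at 1.06, 1.44 and 0.896 CPM in si-EIF5A2, which is 10.9-fold lower (log2 fold change -3.44 ± 0.22, edgeR adjusted p = 2e-05). RAD51AP1, which stimulates joint molecule formation, fell from 16, 15.8 and 12.4 CPM to 3.27, 4.08 and 3.73 CPM (-2.00 ± 0.16, edgeR adjusted p = 6.97e-05). RAD54B, a relative of RAD54L, was more variable in NC, at 3.97, 6.59 and 8.32 CPM against 1.84, 1.99 and 3.11 CPM (-1.44 ± 0.32, edgeR adjusted p = 0.00977).

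In the Fanconi core complex, the ubiquitin ligase of the pathway, 4 of 8 genes fell and 4 were not called. The subunits FANCG, FANCA and FANCE and the ligase subunit FANCL were lower, while FANCB, FANCC, FANCF and the DNA translocase FANCM were not called. FANCG (ENSG00000221829, chr9:35073835-35080016, - strand), which binds FANCA, fell from 33.6, 35.1 and 31 CPM to 2.66, 4.35 and 4.4 CPM. Its level was 11.4% of NC, a log2 fold change of -3.13 ± 0.20 (edgeR adjusted p = 2.32e-05). FANCA (ENSG00000187741, chr16:89737549-89816657, - strand) fell from 17.8, 17.7 and 16.8 CPM to 4.54, 2.09 and 2.44 CPM (-2.53 ± 0.29, edgeR adjusted p = 0.000443). FANCE, which contacts FANCD2, fell from 13.1, 14.5 and 11.5 CPM to 4.62, 5.77 and 4.27 CPM (-1.42 ± 0.17), and FANCL, the RING subunit that transfers ubiquitin, from 5.82, 6.37 and 7.42 CPM to 3.81, 3.56 and 2.27 CPM (-1.02 ± 0.23).

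FANCF, the adaptor between FANCM and the rest of the core, was not called and its groups overlapped. It was at 13.3, 14.5 and 11.7 CPM in NC and at 13.9, 15.2 and 13.6 CPM in si-EIF5A2, with a log2 fold change of 0.11 ± 0.12 (edgeR adjusted p = 0.551). FANCC was separated, at 10.1, 12.2 and 12.2 CPM against 8.12, 8.41 and 6.94 CPM, and its log2 fold change of -0.55 ± 0.14 was just under the fold limit (edgeR adjusted p = 0.0183). It passed the limit when NC replicate 1 (-0.64) or replicate 1 (-0.59) or 2 (-0.61) of si-EIF5A2 was left out. FANCM was at 2.69, 2.98 and 3.47 CPM against 2.31, 1.88 and 2.19 CPM, also without overlap, at -0.52 ± 0.21 (edgeR adjusted p = 0.0976). FANCB was at 0.713, 1.34 and 1.72 CPM against 0.861, 0.268 and 0.709 CPM, and its lowest library held 14 counts, or about 3.81 fragments. At this depth its mean of 48.7% of NC was not distinguishable from no change (-1.03 ± 0.54, edgeR adjusted p = 0.176).

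Of the 4 genes for ubiquitination of FANCD2-FANCI and for unhooking, 3 fell and FAN1 was not called. FANCD2 (ENSG00000144554, chr3:10026414-10101930, + strand), the protein that is ubiquitinated and clamps the damaged DNA, fell from 15.1, 15.1 and 18.8 CPM to 1.58, 1.97 and 1.38 CPM. FANCI, with which it forms the clamp, fell from 25.4, 28.4 and 33 CPM to 7.33, 6.69 and 6.48 CPM. UBE2T (ENSG00000077152, chr1:202331657-202341980, - strand), the ubiquitin-conjugating enzyme that works with FANCL, fell from 24.1, 26.9 and 26.5 CPM to 4.99, 4.21 and 4.34 CPM. The log2 fold changes were -3.31 ± 0.19 for FANCD2, -2.08 ± 0.13 for FANCI and -2.52 ± 0.12 for UBE2T, with edgeR adjusted p = 1.35e-05, 2.17e-05 and 8.12e-06. FAN1, a nuclease that binds ubiquitinated FANCD2, was at 17.8, 13 and 18.2 CPM in NC and at 18.3, 17 and 13.7 CPM in si-EIF5A2, or 99.7% of NC (edgeR adjusted p = 0.99).

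The BLM dissolvasome untangles double Holliday junctions without crossing over, and its 3 genes in the set were all called lower. TOP3A, a gene of the complex outside the set, went from 26.8 to 18.8 CPM. It lay under the fold limit and was not called (-0.51 ± 0.13, edgeR adjusted p = 0.0141). BLM, the helicase of the complex, was at 5.49, 3.73 and 5.32 CPM in NC and at 1.35, 0.805 and 0.167 CPM in si-EIF5A2. The last of these libraries held 8 counts, or about 2.18 fragments, under the floor of 3. The log2 fold change was -2.64 ± 0.64 (edgeR adjusted p = 0.0183), and it was -2.17 (edgeR adjusted p = 0.0032) without that library and -3.31 (edgeR adjusted p = 0.0124) without si-EIF5A2 replicate 1. BLM was no longer called without NC replicate 1 (-2.54, edgeR adjusted p = 0.0562), NC replicate 3 (-2.58, edgeR adjusted p = 0.0528) or si-EIF5A2 replicate 2 (-2.67, edgeR adjusted p = 0.0671). RMI2, an OB-fold scaffold of the complex, fell from 9.58, 6.95 and 8.04 CPM to 1.82, 1.65 and 2.06 CPM (-2.15 ± 0.19, edgeR adjusted p = 0.000105). RMI1, its partner, fell from 5.62, 5.05 and 4.47 CPM to 0.978, 2.36 and 2.04 CPM (-1.49 ± 0.32, edgeR adjusted p = 0.00806).

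Of the 4 genes for the nucleases that cut junctions, EME1 and GEN1 fell and MUS81 and SLX4 were not called. EME1, a partner of MUS81, went from 5.78, 6.8 and 10.3 CPM to 1.66, 2.01 and 1.86 CPM (-2.05 ± 0.25, edgeR adjusted p = 0.000486). EME2, a related gene outside the set, went from a mean of 4.38 CPM to 8.06 CPM without overlap. It was not called (0.88 ± 0.31, edgeR adjusted p = 0.0623). GEN1, a Holliday junction resolvase, went from 6.95, 6.41 and 6.83 CPM to 2.01, 3.07 and 2.56 CPM (-1.40 ± 0.20, edgeR adjusted p = 0.000973). MUS81, the catalytic subunit, was at 29.2, 34.3 and 29.5 CPM in NC and at 30.8, 36.9 and 36.6 CPM in si-EIF5A2 (0.17 ± 0.11, edgeR adjusted p = 0.295). SLX4, a scaffold that binds MUS81, was at 6.54, 5.21 and 7.87 CPM against 5.65, 5.73 and 5.69 CPM (-0.20 ± 0.18, edgeR adjusted p = 0.44). The groups overlapped for MUS81 and SLX4 and were apart for EME1 and GEN1.

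Of POLQ and HELQ, which have related helicase domains, POLQ fell and HELQ was not called. POLQ (ENSG00000051341, chr3:121431427-121546641, - strand), the polymerase of microhomology-mediated end joining, fell from 5.26, 4.23 and 4.15 CPM to 0.587, 0.632 and 0.605 CPM. Its level was 13.4% of NC, a log2 fold change of -2.90 ± 0.22 (edgeR adjusted p = 5.17e-05), and the 3 si-EIF5A2 libraries lay close together. HELQ, a helicase that acts with the complex of RAD51B, RAD51C, RAD51D and XRCC2, was at 5.45, 4.84 and 5.36 CPM in NC and at 5.05, 5.75 and 7.38 CPM in si-EIF5A2, with overlapping groups (0.22 ± 0.18, edgeR adjusted p = 0.408).

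Because several of these proteins work as pairs, the log2 ratio of the CPM of the partners was taken within each library for 7 pairs. With 3 libraries against 3, an exact two-sided permutation test cannot give a p under 0.10, which is 0.14 after adjustment over the 7 pairs, so none could pass the threshold. The ratio of EME1 to MUS81 was -2.33, -2.33 and -1.51 in NC and -4.21, -4.20 and -4.30 in si-EIF5A2, a shift of 4.52-fold. The ratio of PALB2 to BRCA2 was 1.88, 1.79 and 1.79 in NC and 3.20, 3.34 and 4.03 in si-EIF5A2, 3.25-fold in the other direction. Neither pair overlapped between the groups. The ratios of XRCC3 to RAD51C (2.62-fold lower), FANCD2 to FANCI (2.37-fold lower) and MRE11 to RAD50 (1.78-fold lower) did not overlap either, and these 5 pairs all sat at the smallest exact p of 0.10. The ratio of BRCA1 to BARD1 differed by 0.43 on the log2 scale with overlapping groups (exact permutation p = 0.30, adjusted 0.35). The ratio of RMI2 to RMI1 overlapped as well, at a difference of -0.56 (exact permutation p = 0.40, adjusted 0.4).

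**Figure D4:**
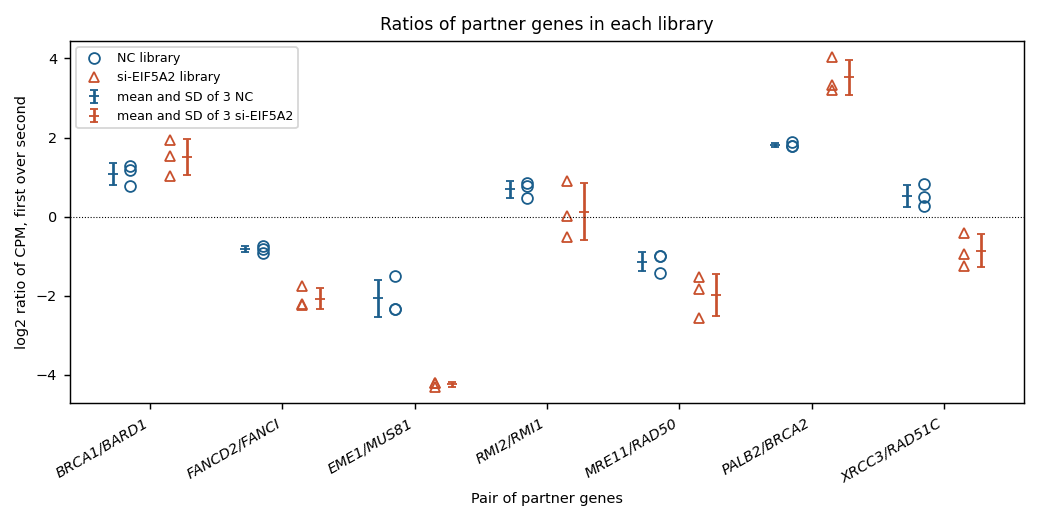
Log2 ratio of the CPM of 2 partner genes in each of the 6 libraries, for the 7 pairs, with each point a library. The groups are apart for EME1/MUS81, PALB2/BRCA2, XRCC3/RAD51C, FANCD2/FANCI and MRE11/RAD50 and overlap for BRCA1/BARD1 and RMI2/RMI1.

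Levels can be set beside each other only per length of exon. The length used was that of all annotated exons of a gene merged, and not that of the transcripts present. The order of genes below therefore depends on the annotation as well. On the scale of CPM per kilobase in NC, UBE2T was highest at 15.6, followed by FANCG at 9.19, NBN at 8.25 and RAD51AP1 at 5.77, and BRCA2 was lowest at 0.263, with FANCB at 0.35 and FANCM at 0.359. In si-EIF5A2 NBN led at 8.81 and MUS81 followed at 6.35, while UBE2T was at 2.73 and FANCG at 1.05. POLQ, at 0.0647, and BRCA2, at 0.0722, were lowest.

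Some exons of these genes are shared with neighbours, and the strand setting of the libraries was not given, so reads there could be counted to either gene. In the GENCODE 29 annotation, 13 of the 39 had more than 5% of their exon bases inside exons of another gene. XRCC3 had 76.7% in common with KLC1 on the other strand, which was not called (0.15 ± 0.10), RAD54L had 25.1% in common with LRRC41 (-0.06 ± 0.10) and FANCA 23.6% with ZNF276 (0.25 ± 0.42). RAD54B had 59.1% in common with FSBP on the same strand, which had a mean of 3.61 CPM in NC against 0.277 CPM in si-EIF5A2 (edgeR adjusted p = 0.0504). RAD50 had 79.7% in common with AC116366.3, which held 0 to 2 counts per library. EME1 had 16.4% in common with LRRC59, which was called higher (0.76 ± 0.06), and MUS81 had 13.9% in common with CFL1, which was called lower, from 962 to 418 CPM (-1.20 ± 0.13). How much of these genes' values came from the shared bases was not tested.

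Other genes of the same pathways were taken from a list of 47 that includes the RPA and BRCA1-A complexes. Of the 46 tested, 23 (50%) were called lower and 0 higher, with a median of -0.65, and DMC1, which acts in meiosis, was at 0 in all 6 libraries. At an unadjusted p under 0.05 in edgeR 4 of them were higher, a threshold at which the share of all genes was not counted. DESeq2 called 23 of them lower and 1 higher, beside 9.5% and 7.46% of 25627 genes with a count. USP1, which removes ubiquitin from FANCD2, fell from 71.7 to 29 CPM (-1.30 ± 0.08). RPA1, the large subunit of the single-strand binding complex, was not called, at 126 and 119 CPM (-0.09 ± 0.13). The RPA subunits RPA2 (-0.67 ± 0.10) and RPA3 (-0.69 ± 0.15) were called lower. In a list of 16 genes of non-homologous end joining and end protection, the competing route, 3 (18.8%) were called lower, NHEJ1 (-0.91), PAXX (-0.87) and POLM (-1.22), and SHLD3 (1.01) was called higher, with a median of -0.21. The shares of 59%, 50% and 18.8% lower stand beside 13.6% of all genes tested and were compared with no test.

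Genes that mark S phase and G2/M cells moved in the same direction as the repair genes. Of 41 S phase markers, 32 were called lower, with a median of -1.30, and their summed level went from 1419 to 1590 CPM in NC to 710 to 726 CPM in si-EIF5A2. Of 54 G2/M markers, 50 were called lower, with a median of -2.41, and their sum went from 5186 to 5513 CPM to 1757 to 1944 CPM. The marker lists used do not hold RAD51AP1, EXO1, BLM or BRIP1, and no gene was counted in both the repair set and a marker list. That absence of overlap comes from how the lists were set and is not a result. The part of the cell cycle in the change of the repair genes was not tested. The endothelial markers PECAM1, VWF and CLDN5 summed to 1.94 to 2.37 CPM in NC and to 0.156 to 1 CPM in si-EIF5A2, and the fibroblast markers to 0.0638 to 1.15 CPM and 0.782 to 2.44 CPM, low levels whose part was not tested either.

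**Figure D5:**
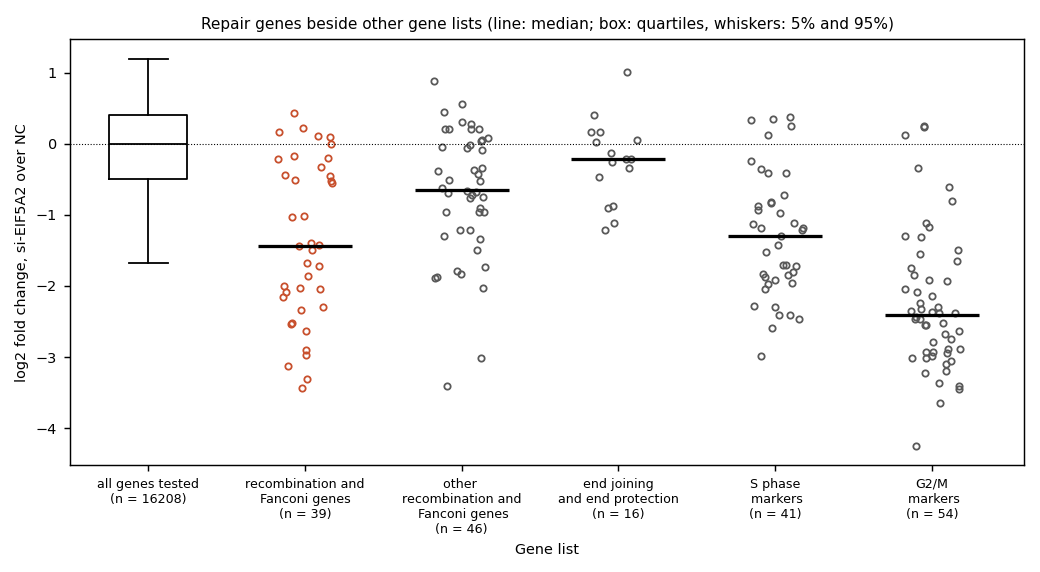
Log2 fold changes in si-EIF5A2 over NC for all 16208 genes tested (box for quartiles, whiskers for 5% and 95%) and for each gene of 5 lists (points, with a line at the median). Medians are -0.01 for all genes, -1.44 for the 39 repair genes, -0.65 for the other recombination and Fanconi genes, -0.21 for end joining and end protection, -1.30 for S phase markers and -2.41 for G2/M markers.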

How the data were processed

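SKOV3 cells transfected with NC or si-EIF5A2 were profiled by paired-end mRNA sequencing, 3 libraries each. Groups and replicate numbers came from the labels. The 6 columns of the count table were matched to libraries by name, with 0 left over. Transcript levels were estimated by the authors with StringTie and ballgown, and the deposited values are estimated counts, whole numbers without normalization. Low values piled up at multiples of about 3.67 counts, taken as the value of 1 fragment; counts divided by this step were an alternative. The aligner and genome build are not given in the methods. The submitters' processing notes list Bowtie 0.12.2 and the mouse builds mm8 and mm9, which do not go with the human Ensembl identifiers of the table. The strand setting is not given in the sources used here.

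Of 58825 identifiers, 58472 had a symbol. Gene positions and exon lengths came from GENCODE 29 (GRCh38), promoter windows from RefSeq (GRCh38.p14). Genes passing filterByExpr (16208) were fitted with edgeR 4.0.16 in R 4.3.3 (TMM, glmQLFit, glmQLFTest, condition only, Benjamini-Hochberg over all genes tested). A call needed an adjusted p under 0.05 as well as a 1.5-fold difference. CPM used TMM-scaled library sizes. Ratios used an exact two-sided permutation test. The scripts were tested on simulated data. Alternatives were DESeq2 1.42.0, other scalings, filters, thresholds, the replicate number as a block, summed identifiers and leaving out each library. The floor of 3 fragments covers counting error only.

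Every one of the 39 genes is accounted for, EIF5A2 is the check of the knockdown, and other genes are named where a result turns on them. The 39 genes and all lists were chosen with earlier results of these data known. The S phase and G2/M lists are based on those distributed with Seurat and may differ from them in some genes. They do not hold RAD51AP1, EXO1, BLM or BRIP1. The S phase list and the list of other recombination genes overlap, for example in USP1.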

Additional observations from a re-analysis of the deposited data

How the results depend on the processing

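The number of repair genes called lower and the median kept their direction under every alternative, with 22 to 24 genes called lower and medians of -1.56 to -1.37 when each library was left out. With no fold limit, 26 were lower, RBBP8, RAD51B and FANCC having joined. The number called higher was 0 to 1 over these, 1 (RAD50) without si-EIF5A2 replicate 2. Under the alternatives at the same threshold, the call or sign of 6 genes changed: BLM lost its call, and MRE11, RAD50, RAD51B and FANCC gained one, as given in the text, FANCC also with no filter on low counts (-0.59). FAN1, at -0.00, changed sign with RLE normalization (0.00), library size only (0.01), the replicate block (0.00), and without NC replicate 1 (0.06), NC replicate 3 (0.07) or si-EIF5A2 replicate 3 (0.10), and ranged from -0.14 to 0.10 as each library was left out. With at least 10 counts in every library BLM was not tested, and 22 genes were called lower. With an unadjusted p under 0.05 and a fold change over 2, 13 of the other recombination and Fanconi genes were lower (9.24% of all genes), and with no fold limit 5 end joining genes were (18.9% of all genes). In the 150 bases nearest the start site, matches stood in 2 (CHR), 9 (CCAAT) and 5 (E2F) of the 20 windowed genes called lower, or 10%, 45% and 25%, beside 6.88%, 29% and 5.72% of the tested genes. Among all tested genes called lower these shares were 12.6%, 33.6% and 8.15%. The cause was not tested.

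Same-numbered libraries did not deviate together (correlations of -0.0244, 0.00522 and -0.00269), so the numbers were not taken as pairs. With the replicate number as a block, 23 repair genes were called lower and 0 higher, with a median of -1.42, and 2050 genes in all were lower and 1681 higher. Depth limited FANCB and BLM most.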
